A study of Mus musculus with 16 samples.

Results

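Integrins and laminins, the receptors and the ligands of cell attachment to the basement membrane, were followed gene by gene across mouse embryonic stem (ES) cells, induced pluripotent stem (iPS) lines and mouse embryonic fibroblasts (MEFs). The chains were taken by target name: every integrin alpha or beta chain gene and every laminin alpha, beta or gamma chain gene on the array, with all its probes. This gave 76 of 46643 probes, for 37 of 34325 target names: 17 integrin alpha, 9 integrin beta and 11 laminin genes. RNA had been measured on 16 Illumina MouseWG-6 arrays, as 8 groups of 2. There were R1 ES cells, the iPS lines OSCK, OSCE #8 and #13 and OSE #T8 and #T9, and MEFs labelled Actin-GFP or Pou5f1-GFP, which carry a green fluorescent protein reporter. The labels do not spell out the letters of the line names. In common use they stand for the reprogramming factors Pou5f1 (Oct4), Sox2, c-Myc, Klf4 and Esrrb. All ES and iPS cells were kept on a feeder layer of mitomycin C-treated MEFs with 15% serum and LIF at 1000 units per ml, and the MEFs were also grown in 15% serum. Neither the strain nor the passage of the cells is given, and each iPS group is a single line.

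An integrin is a pair of 1 alpha and 1 beta chain in the cell membrane. The pair sets the ligand: some pairs bind laminin, others collagen, fibronectin or vitronectin, and a few bind proteins on other cells. A laminin is a cross-shaped trimer of an alpha, a beta and a gamma chain, and it is the main adhesive protein of basement membranes, the first of which form in the early embryo. Inside the cell the beta chain tails bind talin and kindlin, which link the receptor to actin. ES cells are known to attach to laminin through the integrin of Itga6 and Itgb1, and fibroblasts are known for receptors of collagen, fibronectin and vitronectin.

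Each array detected between 35.5% and 38.8% of its probes (detection p under 0.01), and 21551 probes detected on at least 2 arrays were tested. Values are background-corrected, quantile-normalized log2 intensities, and the dimmest detected probe of an array lay between 4.89 and 5.05. Differences are log2 values ± standard error, and a probe was called at a limma adjusted p under 0.05. By their titles a group's 2 arrays are biological replicates of 1 line or MEF type, so p-values measure the spread between such replicates and not between lines. ES cells, OSCK, OSCE #8 and both MEF types shared 2 slides, while OSCE #13, OSE #T8 and OSE #T9 shared 2 other slides, so between these sets slide and group cannot be told apart. All 13 measured pluripotency markers were detected on both arrays of ES cells and of every iPS line, against 2 of 13 in either MEF type. All 15 fibroblast markers were detected in both MEF types, with summed linear intensities of 56200 to 60000. ES cells (22700 to 25500) and the iPS lines (22100 to 31400) also gave fibroblast marker signal, with 13 to 15 of the 15 markers detected on both arrays of a group. How much of it, and of the chains below, came from feeder RNA was not tested. In such bulk samples fewer cells of a type and less RNA per cell cannot be told apart.

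The promoters of 4 chains are shown because these were the largest falls (Lama5, Itgb7) and the largest rises (Itga8, Itga11) from ES cells to MEFs. Each is the 250 bases before a start given by RefSeq on mouse build GRCm38.p6, on the gene's own strand from 5′ to 3′. Capitals mark the GC box GGGCGG and the E-box CACCTG, found on either strand.
Lama5, chr2:180225860-180226109 (- strand): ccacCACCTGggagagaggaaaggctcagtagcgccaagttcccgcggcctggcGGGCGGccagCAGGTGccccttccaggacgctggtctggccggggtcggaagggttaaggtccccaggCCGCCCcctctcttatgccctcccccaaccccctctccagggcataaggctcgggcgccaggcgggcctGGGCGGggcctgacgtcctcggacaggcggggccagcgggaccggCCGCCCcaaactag
Itgb7, chr15:102231936-102232185 (- strand): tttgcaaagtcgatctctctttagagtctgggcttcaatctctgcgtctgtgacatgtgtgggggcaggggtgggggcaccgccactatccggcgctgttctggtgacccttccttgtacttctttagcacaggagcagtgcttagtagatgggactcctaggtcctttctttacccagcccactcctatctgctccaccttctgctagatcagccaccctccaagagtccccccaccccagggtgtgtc
Itga8, chr2:12301945-12302194 (- strand): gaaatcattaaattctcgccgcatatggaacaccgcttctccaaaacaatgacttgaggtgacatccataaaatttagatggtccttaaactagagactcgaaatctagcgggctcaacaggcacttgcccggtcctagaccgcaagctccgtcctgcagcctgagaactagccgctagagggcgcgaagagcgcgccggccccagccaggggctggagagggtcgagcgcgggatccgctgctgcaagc
Itga11, chr9:62677605-62677854 (+ strand): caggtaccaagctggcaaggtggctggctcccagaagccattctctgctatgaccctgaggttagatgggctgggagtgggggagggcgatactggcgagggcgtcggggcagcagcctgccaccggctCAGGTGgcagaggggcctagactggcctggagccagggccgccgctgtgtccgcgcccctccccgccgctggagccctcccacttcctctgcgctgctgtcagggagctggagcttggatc
The Lama5 window held 4 GC boxes and 2 E-boxes and was 72.4% G and C. The Itga11 window held 1 E-box and was 68.4% G and C, and those of Itgb7 (56.0%) and Itga8 (56.4%) held no match to either motif. RefSeq windows were taken for 23 of the chains, as 26 windows, with a chromosome left out for the chains but not for all genes. The GC box was in 9 of these 26 windows and in 32.7% of 32851 windows of all genes, and the E-box was in 8 of 26 and in 17.2%. The nuclear receptor half-site AAGGTCA (4.08% of all windows) and the TATA box TATAAA (12.4%) were searched on both strands too and matched none of the 26. These are matches of letters in short windows and no measure of binding.

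Of the 37 chains, 25 had a probe that passed the filter on dim probes (38 probes), namely 10 integrin alpha, 6 integrin beta and 9 laminin genes. No probe of 10 chains was detected on any array. These were Itga1, Itga2b, Itga7, Itgad, Itgam, Itgax, Itgb2, Itgb6, Itgb8 and Lama1. Itga2b is the platelet chain, Itgam, Itgax and Itgb2 are chains of leukocytes, Itga7 is a laminin receptor of muscle, and Lama1 is the alpha chain of the first embryonic laminin. The highest value of any probe never detected was 4.86, so for these chains the arrays bound only the signal of their probes. Low expression and a probe that misses its transcript cannot be told apart here. Leukocyte markers had a summed intensity of 13500 to 13600 in Actin-GFP MEFs and of 2990 to 4240 in all other groups. Bright members weigh on such sums, as Laptm5 did with a mean of 11.44 for ES cells against 10.1 for Pou5f1-GFP MEFs. Of the 16 markers, 13 were detected on both arrays for Actin-GFP MEFs and 12 for Pou5f1-GFP MEFs. The count was 6 for ES cells and 6 to 10 for the iPS lines. The leukocyte chains Itgam, Itgax and Itgb2 were not detected in any group. Itgal, another leukocyte chain, was detected on all 16 arrays and was called higher in the iPS lines than in MEFs (0.55). Itga9, a receptor of tenascin, and Lamc3, a gamma chain, were each detected on 1 array and were not tested. Of the tested genes, 9 had more than 1 tested probe. Each gene is given by its brightest probe, and other probes are named where they differ.

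**Figure D1:**
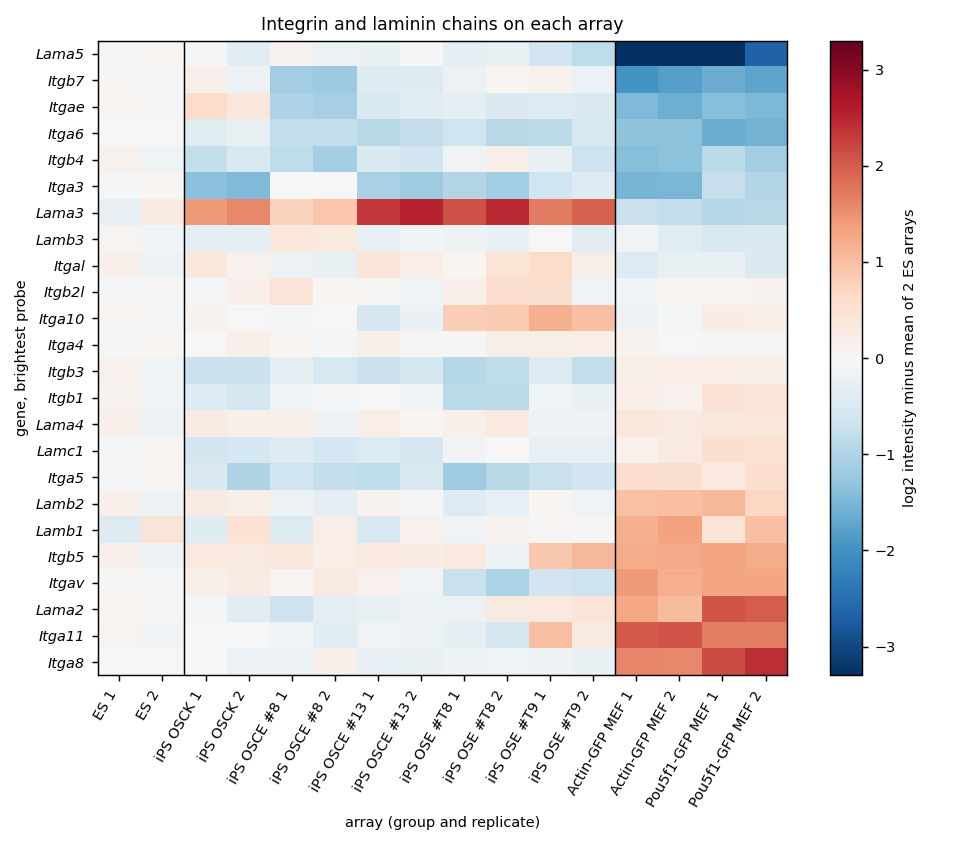
Log2 intensity of the brightest probe of the tested chains named in the text (rows) on each of the 16 arrays (columns, named by group and replicate), as the difference from the mean of the 2 ES arrays. Blue is lower and red higher than ES cells. The MEF columns hold the deepest blue, that of Lama5, and among the MEF columns the deepest red is that of Itga8. Lama3 is red in all 10 iPS columns.

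In MEFs (n = 4 arrays) against ES cells (n = 2 arrays), the mesenchymal receptor chains Itga8 and Itga11 and the vitronectin receptor chains Itgav and Itgb5 were higher. The laminin receptor chains Itga3, Itga6 and Itgb4 and the laminin chain Lama5 were lower. Of the 38 probes tested, 28 were called, against 59.3% of all probes, with 15 higher (30.6% of all) and 13 lower (28.7%). By gene, 11 chains rose, 9 fell and 5 were not called, with a median of 0.06 beside -0.01 over all probes. At least 2-fold differences were called for 15 of the 38 probes, against 21.6% of all probes. In this and in each comparison below with ES cells, the same 2 ES arrays serve as the control.

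The largest rises were those of mesenchymal receptor chains. Itga8, a partner of Itgb1 that binds nephronectin in mesenchyme, was at 4.63 and 4.61 in ES cells, at 6.23 and 6.21 in Actin-GFP MEFs and at 6.77 and 7.06 in Pou5f1-GFP MEFs. It was above background on all 4 MEF arrays and on no ES or iPS array, and it entered the test through the MEF arrays alone. It was at least 3.08-fold higher in MEFs (1.95 ± 0.12), which is given as values only, while its probe stays in the counts. Itga11, a collagen receptor chain of fibroblasts, was at 10.35 and 10.18 in ES cells, at 12.29 and 12.33 in Actin-GFP MEFs and at 11.95 and 11.96 in Pou5f1-GFP MEFs. The MEF arrays lay above both ES arrays, and the gene rose 3.65-fold (1.87 ± 0.16, limma adjusted p = 7.09e-08). A dimmer Itga11 probe was detected on no ES array and was at least 2.53-fold higher in MEFs.

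The vitronectin receptor of Itgav and Itgb5 was higher in MEFs in both of its chains. Itgav was at 7.11 and 7.01 in ES cells, at 8.46 and 8.25 in Actin-GFP MEFs and at 8.37 on both Pou5f1-GFP MEF arrays. Itgb5 was at 9.04 and 8.71 in ES cells, at 10.11 and 10.13 in Actin-GFP MEFs and at 10.17 and 10.10 in Pou5f1-GFP MEFs. For both chains every MEF array lay above both ES arrays, and the MEF arrays were within a narrow band. Itgav rose 2.47-fold (1.30 ± 0.12, limma adjusted p = 1.91e-07) and Itgb5 rose 2.39-fold (1.26 ± 0.14, limma adjusted p = 1.17e-06). A second Itgb5 probe rose as well (1.19), while a second, dim Itgav probe was not called (0.17, limma adjusted p = 0.437). Itga5, the alpha chain of the classical fibronectin receptor, rose less (0.49 ± 0.15), and Itgb1, the beta chain shared by most of these receptors, rose by 0.31 ± 0.10, with values between 11.45 and 12.81 over all 16 arrays.

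The chains known chiefly as laminin receptors fell, namely Itga6, Itgb4 and Itga3. Itga6, the alpha chain that pairs with Itgb1 or Itgb4, was at 9.21 and 9.26 in ES cells, at 7.90 and 7.89 in Actin-GFP MEFs and at 7.61 and 7.67 in Pou5f1-GFP MEFs. Its arrays did not overlap between the groups, and it fell by 1.47 ± 0.11 on the log2 scale (2.77-fold, limma adjusted p = 3.53e-08). A second Itga6 probe gave -1.54, and another, dim one was not called (0.11, limma adjusted p = 0.512). Itgb4, the beta chain of hemidesmosomes, was at 6.26 and 5.99 in ES cells, at 4.72 and 4.76 in Actin-GFP MEFs and at 5.24 and 4.99 in Pou5f1-GFP MEFs. Itga3, a laminin receptor chain of epithelia, was at 7.51 and 7.62 in ES cells, at 6.04 and 6.06 in Actin-GFP MEFs and at 6.80 and 6.59 in Pou5f1-GFP MEFs. Both were lower on every MEF array, Itgb4 by 1.20 ± 0.15 (2.29-fold, limma adjusted p = 6.01e-06) and Itga3 by 1.19 ± 0.11 (2.29-fold, limma adjusted p = 1.53e-07), and Itgb4 was detected on only 2 of 4 MEF arrays.

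Itgae and Itgb7 form a receptor of intraepithelial lymphocytes that binds E-cadherin, and both were detected on the ES arrays. Itgb7 was at 6.65 and 6.58 in ES cells, at 4.64 and 4.81 in Actin-GFP MEFs and at 4.99 and 4.88 in Pou5f1-GFP MEFs. Itgae was at 6.81 and 6.66 in ES cells, at 5.29 and 5.12 in Actin-GFP MEFs and at 5.33 and 5.26 in Pou5f1-GFP MEFs. Itgb7 fell to the level of background, being detected on 1 of 4 MEF arrays, with a measured difference of -1.78 ± 0.13 (limma adjusted p = 1.28e-08). Itgae fell by 1.49 ± 0.11 on the log2 scale (2.80-fold, limma adjusted p = 1.26e-08), and its 2 other tested probes fell too (-1.91 and -0.66). The epithelial markers, whose E-cadherin is the ligand of this pair, had a summed intensity of 3200 to 3380 in ES cells and of 346 to 441 in MEFs.

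Laminin chains moved in both directions, and all 9 tested were called, against 59.3% of all probes. Lama5, an alpha chain of early embryonic basement membranes, gave the largest difference of any chain. It was at 7.99 and 8.14 in ES cells, at 4.73 and 4.66 in Actin-GFP MEFs and at 4.71 and 5.40 in Pou5f1-GFP MEFs. The second Pou5f1-GFP array was the only MEF array on which it was detected, and the measured difference was -3.19 ± 0.17 (limma adjusted p = 3.63e-10), its size limited by background on the other MEF arrays. Lama3, an alpha chain of epithelial laminin, was also lower (-0.85 ± 0.15), although it was detected on 1 ES array and on no MEF array. Lamb3, its beta chain partner, was detected on no ES or MEF array, so the call of its probe compares levels of background.

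The other laminin chains given here, Lama2, Lamb2, Lamb1, Lamc1 and Lama4, were called higher in MEFs. Lama2, the alpha chain around muscle and nerve, was at 5.48 and 5.33 in ES cells, at 6.69 and 6.45 in Actin-GFP MEFs and at 7.47 and 7.41 in Pou5f1-GFP MEFs. It was higher on every MEF array, by 3.02-fold (1.60 ± 0.15, limma adjusted p = 2.31e-07). Lamb2, a beta chain of synaptic and kidney basement membranes, was at 8.34 and 8.01 in ES cells, at 9.13 and 9.17 in Actin-GFP MEFs and at 9.26 and 8.87 in Pou5f1-GFP MEFs, and rose by 0.93 ± 0.13 (limma adjusted p = 1.69e-05). Lamb1, the beta chain of the first embryonic laminin, was at 5.62 and 6.49 in ES cells, at 7.24 and 7.38 in Actin-GFP MEFs and at 6.51 and 7.04 in Pou5f1-GFP MEFs. The highest ES array and the lowest MEF array of Lamb1 almost met, and the rise of 0.99 ± 0.28 (limma adjusted p = 6.79e-03) was 0.56 and no longer called without ES replicate 1 (limma adjusted p = 0.172). Lamc1, the gamma chain of most laminins, rose by 0.37 ± 0.10 and Lama4, the alpha chain of vessel walls, by 0.35 ± 0.12.

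**Figure D2:**
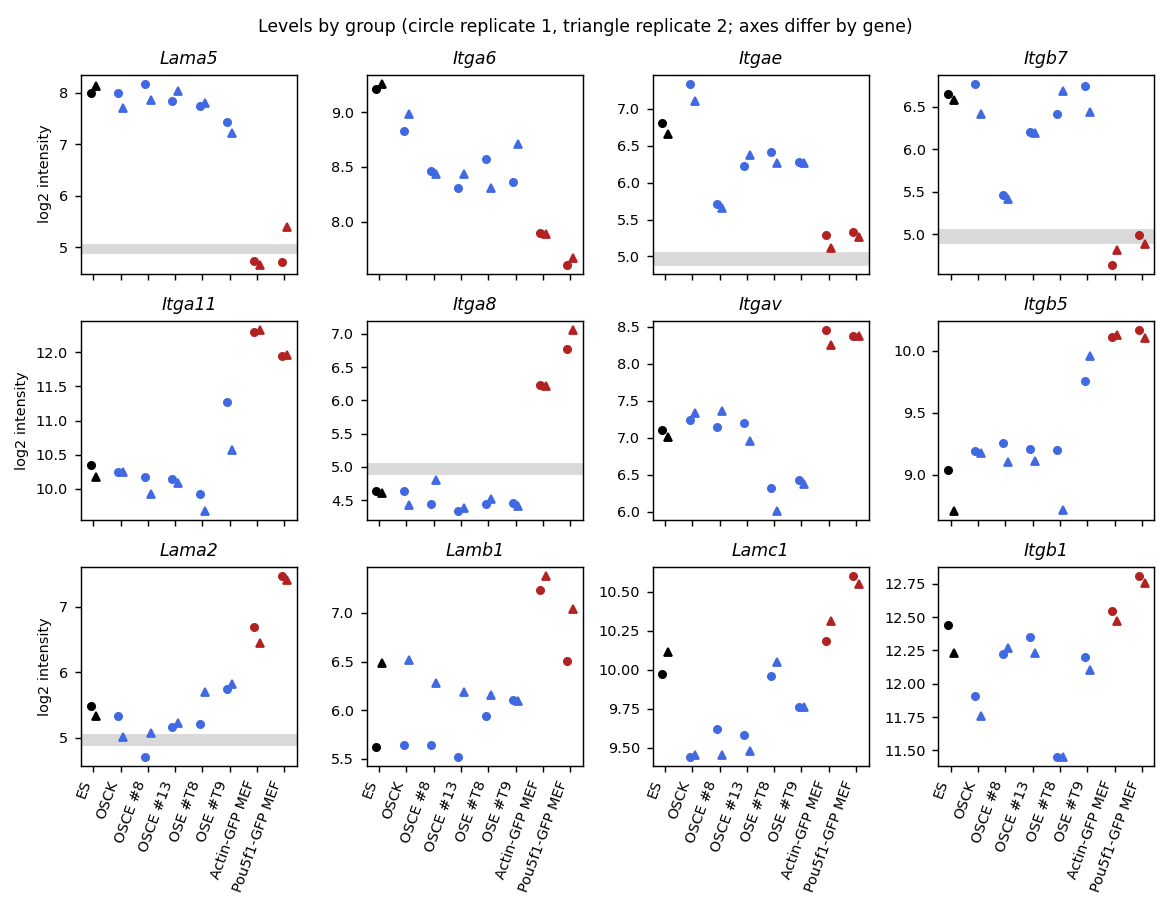
Log2 intensity on every array for 12 chains, by group, with a circle for replicate 1 and a triangle for replicate 2 (ES cells black, iPS lines blue, MEFs red). The grey band is the level of the dimmest detected probe (4.89 to 5.05) and is drawn where it falls within the axis, and axes differ by gene. Lama5, Itgb7 and Itgae are lowest in MEFs, Itga8 is above the band only in MEFs, and Lamb1 has its replicate 1 below its replicate 2 in ES cells and in 3 of the 5 iPS lines by over 0.6.

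The iPS lines (n = 10 arrays) differed from MEFs (n = 4 arrays) at 32 of the 38 probes, against 69.1% of all probes, with 16 higher (33.8% of all) and 16 lower (35.2%). By gene 11 chains were higher, 12 were lower and only Itga4, a receptor chain of fibronectin and VCAM-1, and Itgb2l were not called. Lama5 was at 4.66 to 5.40 on the MEF arrays, and its lowest value was 7.22, its median 7.82 and its highest value 8.18 on the iPS arrays (a measured difference of 2.91 ± 0.11, limma adjusted p = 6.20e-12, with 1 of 4 MEF arrays above background). Itga8 was not detected on any of the 10 iPS arrays, with a highest value of 4.80. It was at least 3.02-fold lower than in MEFs, again given as values only. The ranges of both chains lay apart from the MEF range. Itga11 (-1.91), Lama2 (-1.71), Itgav (-1.53) and Itga5 (-1.26) fell and Itgb7 (1.44) and Itgae (1.11) rose. Itga10 was called higher in the iPS lines (0.25 ± 0.07, limma adjusted p = 7.13e-03), but it was lower in them by 0.08 and 0.01 within the slides that hold both kinds of cell.

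Against ES cells (n = 2 arrays), the mean of the 5 iPS lines differed at 14 of 38 probes, 3 higher and 11 lower, against 20.0% of all probes (10.0% higher and 9.96% lower). By gene 3 chains were higher, 9 lower and 13 not called, with a median of -0.11 beside 0.01 over all probes. Lama3 was measured higher in all 5 lines. Itga5 and Itgb3 were called lower in all 5, with no matching share over all probes at hand. All 5 comparisons use the same 2 ES arrays, and Itgb3 was detected on 1 and Itga5 on 6 of the 10 iPS arrays. With 1 mean per line as the replicate, limma called 160 of the 21551 probes, and among the chains it called a single probe, of Itga6.

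Lama3, the alpha chain that pairs with Lamb3 in epithelial laminin, was at 4.97 and 5.50 in ES cells. The OSCK arrays gave 6.64 and 6.83. The OSCE arrays gave 5.97 and 6.16 (#8) and 7.58 and 7.77 (#13), and the OSE arrays 7.34 and 7.70 (#T8) and 6.94 and 7.19 (#T9). Every iPS array lay above both ES arrays, with a measured difference of 1.78 ± 0.13. The probe was detected on all 10 iPS arrays and on 1 of 2 ES arrays. The iPS arrays thus carried it past the filter on dim probes, and background in ES cells limits the size of the difference. The difference is given as values only, while the probe stays in the counts. Single lines ranged from 0.83 ± 0.17 in OSCE #8 to 2.44 ± 0.17 in OSCE #13. On the slides that hold ES cells, OSCK and OSCE #8 the mean of these lines was 0.99 and 1.34 higher. With 1 mean per line as the replicate the same difference was not called (limma adjusted p = 0.298). A second Lama3 probe stayed between 4.79 and 5.56 on all arrays and was not called (0.16 ± 0.17, limma adjusted p = 0.600). Epithelial markers had 6 members called higher and 1 lower of 12 in the iPS lines, and their part in the Lama3 difference was not tested.

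Its partner Lamb3 was detected on the OSCE #8 arrays alone, and it was not called over the 5 lines (-0.10 ± 0.11, limma adjusted p = 0.620). Lamc1 was lower (-0.39 ± 0.09, limma adjusted p = 4.85e-03), at 9.97 and 10.11 in ES cells and from 9.44 to 10.05 with a median of 9.60 on the iPS arrays, where the OSE #T8 values overlapped those of ES cells. Lama5 lay between 7.22 and 8.18 on the iPS arrays and at 7.99 and 8.14 in ES cells, so the ranges overlapped, and over all lines it was not called (-0.28 ± 0.15, limma adjusted p = 0.216). In OSE #T9 alone it was called lower, at 7.44 and 7.22 (-0.74 ± 0.19, limma adjusted p = 0.0140).

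Of the laminin receptors, Itga6 was lower in the lines. Its brightest probe was at 9.21 and 9.26 in ES cells and at 8.83 and 8.98 in OSCK. The OSCE arrays gave 8.46 and 8.44 (#8) and 8.31 and 8.44 (#13), and the OSE arrays 8.57 and 8.31 (#T8) and 8.36 and 8.71 (#T9). No iPS array reached the ES level, and the difference was -0.70 ± 0.10 (1.62-fold, limma adjusted p = 1.74e-04), called in 4 single lines but not in OSCK. The second probe fell further, from 6.98 and 7.25 in ES cells to between 5.35 and 6.11 in the lines (-1.24 ± 0.14, 2.36-fold). This second probe was the one still called with 1 mean per line as the replicate (limma adjusted p = 0.0174). Itgb4 was at 6.26 and 5.99 in ES cells and from 5.00 to 6.31 with a median of 5.57 on the iPS arrays. The highest Itgb4 values were those of OSE #T8, which lay at the ES level, and the mean difference of -0.52 ± 0.13 (limma adjusted p = 0.0124) was -0.39 and not called without ES replicate 1 (limma adjusted p = 0.212).

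Itga3 split the lines. It was at 7.51 and 7.62 in ES cells and at 7.56 and 7.59 in OSCE #8, but at 6.18 and 6.10 in OSCK and at 6.50 and 6.39 in OSCE #13. The OSE arrays gave 6.59 and 6.41 (#T8) and 6.90 and 7.13 (#T9). OSCE #8 thus lay within the ES range and the other 4 lines below it, each of them called. The mean over lines was -0.83 ± 0.10 (1.78-fold, limma adjusted p = 1.55e-05).

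Itga5 and Itgb3, of receptors for fibronectin and vitronectin, were lower in the lines as well. Itga5 was at 5.82 and 5.95 in ES cells and at 5.40 and 4.88 in OSCK. The OSCE arrays gave 5.22 and 5.09 (#8) and 5.05 and 5.38 (#13), and the OSE arrays 4.70 and 4.98 (#T8) and 5.16 and 5.25 (#T9). All 10 values were below both ES values, and the measured difference was -0.78 ± 0.13 (limma adjusted p = 5.55e-04), with single lines from -0.67 to -1.05. Itga5 was detected on 6 of the 10 iPS arrays and on no OSE #T8 array, so background limits the size of these differences. Itgb3, a partner of Itgav, was at 5.55 and 5.27 in ES cells and between 4.47 and 5.11 on the iPS arrays, of which it was detected on 1. It was lower on all of them, with a measured difference of -0.66 ± 0.11 (limma adjusted p = 4.23e-04) whose size background limits. Itga5 and Itgb3 were at their highest in MEFs (6.20 to 6.44 and 5.60 to 5.64). With 1 mean per line, neither was called (limma adjusted p = 0.131 and 0.249).

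The rises were small beside that of Lama3. Itgb5 was at 9.04 and 8.71 in ES cells and from 8.72 to 9.96, with a median of 9.20, on the iPS arrays. The OSE #T9 arrays (9.76 and 9.96) were the highest, the other lines overlapped the ES range or lay within 0.3 of it, and the mean difference of 0.40 ± 0.12 (limma adjusted p = 0.0301) was 0.23 and not called without ES replicate 2 (limma adjusted p = 0.427). A second Itgb5 probe was not called (0.21 ± 0.11, limma adjusted p = 0.229). Itga10, a collagen receptor chain of cartilage, was at 5.64 and 5.53 in ES cells and from 5.02 to 6.75 on the iPS arrays. Its mean difference of 0.31 ± 0.10 (limma adjusted p = 0.0377) joined opposite directions, since it was called higher in both OSE lines and lower in OSCE #13, and over the lines that share slides with ES cells it was 0.01. Its call was lost without either ES array, and also without OSCK replicate 1, OSCE #8 replicate 2, OSE #T8 replicate 2 or either Pou5f1-GFP MEF array (limma adjusted p from 0.0505 to 0.292). Itgb1 gave -0.34 ± 0.09 (limma adjusted p = 0.0117) by its brightest probe and 0.02 ± 0.11 (limma adjusted p = 0.941) by its other tested probe. Itgae (-0.38 ± 0.10) and Itgb7 (-0.35 ± 0.11) were called lower, and they differed widely between lines as given next.

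**Figure D3:**
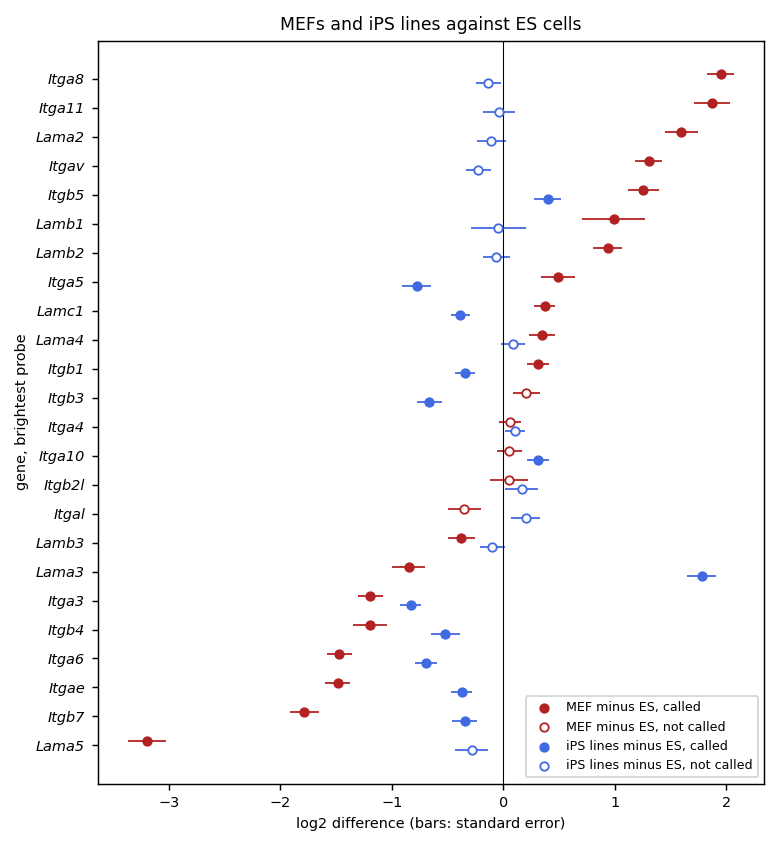
Log2 difference of the brightest probe of the tested chains named in the text in MEFs against ES cells (red) and in the mean of the 5 iPS lines against ES cells (blue), with bars of 1 standard error. Filled points were called at a limma adjusted p under 0.05, and both sets of points share the 2 ES arrays. Lama3 is the chain with a MEF value below 0 (-0.85) and an iPS value above 1 (1.78), and most iPS points lie between -1 and 0.5.

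Taken singly against the same ES arrays, OSCK had 10 of 38 probes called (15.3% of all probes), OSCE #8 had 13 (22.1%), OSCE #13 had 11 (17.3%), OSE #T8 had 13 (19.1%) and OSE #T9 had 13 (18.3%). In each line more of the called chain probes were lower than higher. OSCK had 2 higher and 8 lower, beside 7.56% and 7.79% of all probes, and OSCE #8 had 3 and 10, beside 11.0% and 11.1%. OSCE #13 had 1 and 10, beside 8.75% and 8.57%. OSE #T8 had 3 and 10, beside 9.60% and 9.54%, and OSE #T9 had 4 and 9, beside 9.60% and 8.74%. Of the 25 chains, 8 were called in none of the 5 lines, with no matching share over all probes at hand. These were Itga4, Itga8, Itgal, Itgb2l, Lama4, Lamb1, Lamb2 and Lamb3. Itgal, a chain of a leukocyte receptor, ranged over all arrays from 5.03 to 6.11, Itga4 from 4.96 to 5.24, Itgb2l from 4.35 to 5.05, Lama4 from 6.88 to 7.43 and Lamb3 from 4.27 to 5.16. Itga10 and Itgae were each called higher in some lines and lower in others.

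OSCE #8 and OSCK shared slides and differed at 10 of 38 probes, against 15.2% of all probes, with 5 higher (7.38% of all) and 5 lower (7.78%). Itga3, at 7.56 and 7.59 in OSCE #8 and at 6.18 and 6.10 in OSCK, was 2.70-fold higher in OSCE #8 (1.43 ± 0.12, limma adjusted p = 1.35e-06). The arrays of the lines lay far apart, with ES cells at the level of OSCE #8. Lama3 was lower (-0.67). Lamb3 was at 5.16 and 5.11 in OSCE #8, the only arrays on which it was detected, and at 4.46 and 4.49 in OSCK, and since it entered the test through those arrays alone its difference is given as values only. The epithelial markers had 6 members called higher and 1 lower of 12 in this comparison, with sums of 6100 to 6630 in OSCE #8 and 3180 to 3270 in OSCK. Their part in these differences was not tested.

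The lymphocyte receptor pair went the other way. Itgae was at 5.71 and 5.65 in OSCE #8 and at 7.34 and 7.11 in OSCK, which had the highest values of any group, and it was lower by -1.54 ± 0.12 (2.91-fold, limma adjusted p = 6.15e-07). Itgb7 was at 5.46 and 5.41 in OSCE #8 and at 6.77 and 6.41 in OSCK, with a difference of -1.15 ± 0.15 (2.22-fold, limma adjusted p = 6.43e-05). Both chains were lower in OSCE #8 than in any other iPS line or ES cells on every array. The pluripotency markers had 10 members called lower of 13 in the same comparison, with sums of 14900 to 15400 in OSCE #8 and 29700 to 29800 in OSCK, and their part was not tested.

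**Figure D4:**
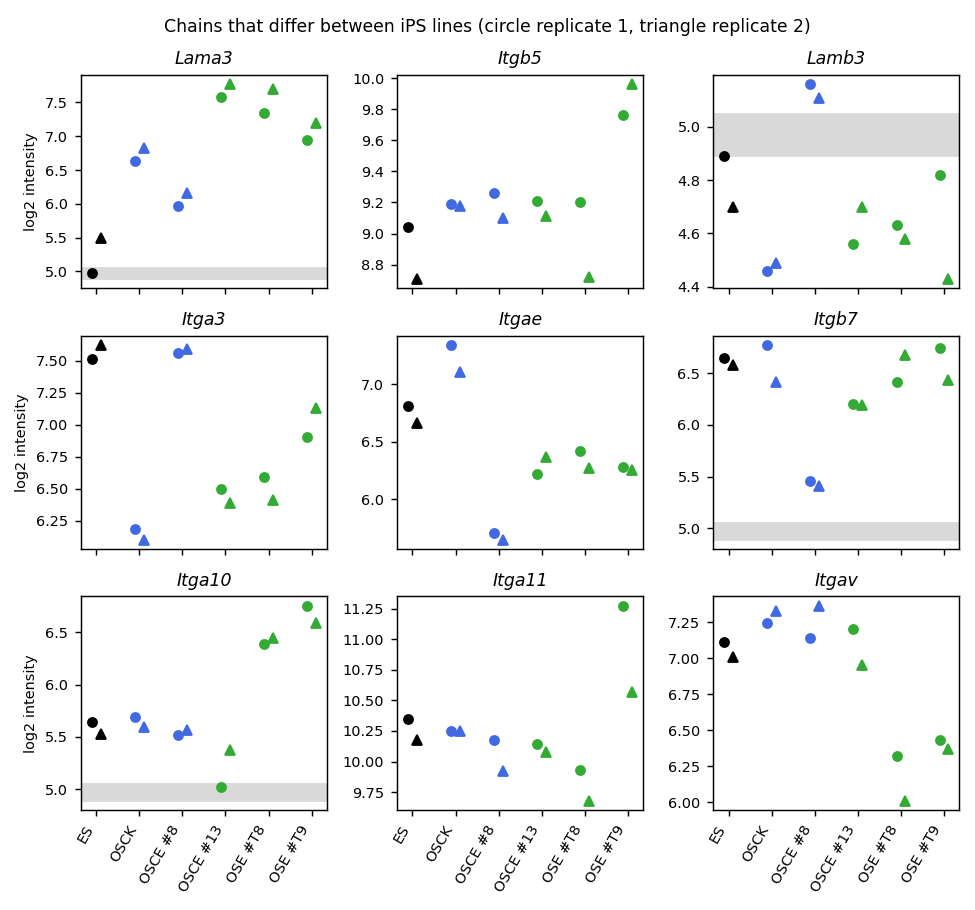
Log2 intensity on each array of ES cells (black), the lines on the same slides (blue) and the lines on the other slides (green) for 9 chains that differ between lines, with a circle for replicate 1 and a triangle for replicate 2. The grey band (4.89 to 5.05) is the level of the dimmest detected probe, and axes differ by gene. OSCE #8 has the highest Lamb3 and the lowest Itgae and Itgb7, the OSE lines have the highest Itga10 and the lowest Itgav, and OSE #T9 has the highest Itga11 and Itgb5.

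The OSE lines (n = 4 arrays) and OSCE #13 (n = 2 arrays) shared the other slides. They differed at 5 of 38 probes, against 18.1% of all probes, with 2 higher (9.20% of all) and 3 lower (8.93%). With slide as a random block they differed at 9 of 38, beside 4995 of all 21551 probes. Itga10 was at 6.39 and 6.45 in OSE #T8 and at 6.75 and 6.59 in OSE #T9, against 5.02 and 5.37 in OSCE #13, and was 2.55-fold higher (1.35 ± 0.11, limma adjusted p = 1.13e-06). The OSE arrays also lay above every ES, OSCK, OSCE #8 and MEF array of Itga10, the highest of which was 5.82. Itgav was at 6.32 and 6.01 in OSE #T8 and at 6.43 and 6.37 in OSE #T9, against 7.20 and 6.95 in OSCE #13 (-0.79 ± 0.12, limma adjusted p = 2.72e-04). Itgb1 was also called (-0.49 ± 0.10), with means of 11.45 in OSE #T8 and 12.15 in OSE #T9 against 12.29 in OSCE #13. Lamc1 was called as well (0.35 ± 0.10). Without OSCE #13 replicate 1 neither of these 2 was called (limma adjusted p = 0.0507 and 0.0649), and 3 probes were called in all. Lamc1 was not called without OSCE #13 replicate 2 either (0.30, limma adjusted p = 0.174).

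Between the OSE lines, OSE #T9 was higher than OSE #T8 at 5 of 38 probes, against 11.0% of all probes called in either direction (6.10% higher and 4.90% lower). With slide as a random block 10 of 38 were called, beside 3420 of all 21551 probes. Itga11 was at 11.27 and 10.57 in OSE #T9 and at 9.93 and 9.68 in OSE #T8 (1.11 ± 0.18, 2.16-fold, limma adjusted p = 1.18e-03). Itgb5 was at 9.76 and 9.96 against 9.20 and 8.72 (0.90 ± 0.16, limma adjusted p = 1.77e-03). Itgb1 was at 12.20 and 12.10 against 11.45 on both arrays (0.70 ± 0.11, limma adjusted p = 1.08e-03), and OSE #T8 was the lowest of all groups for this chain. The arrays of the lines did not overlap for these chains. Itga3 was called as well (0.52 ± 0.12, limma adjusted p = 0.0142), but not without OSE #T8 replicate 2 (0.43, limma adjusted p = 0.125) or OSE #T9 replicate 2 (0.40, limma adjusted p = 0.111). Fibroblast markers had 2 members called higher and 2 lower of 15 between these lines, with sums of 25700 to 29800 in OSE #T9 and 22100 to 24300 in OSE #T8.

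Between the MEF types, Actin-GFP and Pou5f1-GFP MEFs differed at 4 of 38 probes, against 10.4% of all probes, with 1 higher (4.81% of all) and 3 lower (5.63%). Lama2 was at 6.69 and 6.45 in Actin-GFP MEFs and at 7.47 and 7.41 in Pou5f1-GFP MEFs (-0.87 ± 0.17, 1.83-fold, limma adjusted p = 3.04e-03). Itga8 was at 6.23 and 6.21 against 6.77 and 7.06 (-0.69 ± 0.14, limma adjusted p = 3.59e-03), and this was -0.55 and not called without Pou5f1-GFP MEF replicate 2 (limma adjusted p = 0.0627). Itga3 was at 6.04 and 6.06 against 6.80 and 6.59 (-0.64 ± 0.12, limma adjusted p = 2.53e-03). The dim Itga11 probe was higher in Actin-GFP MEFs (0.85 ± 0.19), while the bright one was not called. Muscle markers had 5 of 6 tested members called lower in Actin-GFP MEFs, with sums of 610 to 647 against 974 to 984, and leukocyte markers had 11 of 14 called higher. Their part in these 4 differences was not tested.

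The proteins that work with these chains were counted in 3 lists. Of 19 tested basement membrane partners and integrin ligands, 12 were higher and 5 lower in MEFs than in ES cells, beside 30.6% and 28.7% of all probes (median 0.99 beside -0.01 over all probes). The collagen IV chains Col4a1 (2.32) and Col4a2 (2.01) and the laminin linker Nid1 (1.64) rose, and the matrix protein Ecm1 (-1.58), the integrin ligand Spp1 (-1.37) and the basement membrane collagen Col18a1 (-0.93) fell. In the iPS lines against ES cells, 2 of the 19 were higher, 3 lower and 14 not called, beside 10.0% higher and 9.96% lower over all probes. Of 8 other laminin receptors and tetraspanins, 4 were higher and 3 lower in MEFs, beside the same 30.6% and 28.7%, with a median of 0.05. The laminin receptor Bcam was lower both in MEFs (-1.48) and in the iPS lines (-0.79), where it was the 1 member called of 8, against 20.0% of all probes.

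Of 21 genes of the integrin adhesion complex, 14 were higher and 1 lower in MEFs than in ES cells, beside 30.6% and 28.7% of all probes (median 0.73 beside -0.01). Lims2 (2.15), the actin link Parva (1.93), the kinase-like scaffold Ilk (1.86) and the actin-associated Zyx (1.72) had the largest rises. The one called lower was Fermt1, the kindlin of epithelia, with a measured difference of -0.62. Fermt1 also had the largest measured difference of the list in the iPS lines against ES cells (2.57). Its group means were 4.94 in ES cells, 7.38 in OSCK, and 7.27 and 8.88 in the OSCE lines #8 and #13. They were 7.48 and 6.50 in the OSE lines #T8 and #T9, and 4.32 in both MEF types. Like Lama3, it was above the ES mean in all 5 lines and below it in MEFs. Fermt1 was detected on 11 arrays. Its MEF means lay under the level of the dimmest detected probe (4.89 to 5.05), and its ES mean lay within that range. The MEF difference thus compares levels near or under background. Only the iPS lines had means above that range, and their arrays carried Fermt1 past the filter on dim probes. The iPS difference is given as values only, and background in ES cells limits its size. Of the other members, Parva was higher in the iPS lines (0.55), 6 were lower and 13 were not called, so that 2 were higher and 6 lower in all, beside 10.0% and 9.96% of all probes.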

How the data were processed

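Total RNA of 16 samples (500 ng each) had been hybridised to 16 arrays. Per the file headers, the authors exported linear signal intensity from BeadStudio 3.2.6 with normalization set to none. Beside each intensity stands a detection score, deposited as 1 minus the detection p. The deposited series matrix was not used, because its probe names do not occur in the raw table.

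The signal was corrected with limma 3.58.1 (R 4.3.3) by its normal-exponential model (detection p, offset 16), quantile normalized and put on log2. Probes detected (p under 0.01) on at least 2 arrays entered 1 fit of 8 group means, with 8 residual and 6.32 prior degrees of freedom. P-values were adjusted by Benjamini-Hochberg over all 21551 probes within each of 12 contrasts, and the fit was tested on simulated data. The number of arrays limits the precision. An at-least fold sets the brighter group against the higher of the dim probe's own level and the dimmest detected level of each array. Slides were read from the array names. Target names were used as deposited, with no gene coordinates.

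The chains, the lists of partners and cell markers, the contrasts and the alternatives were chosen with earlier results of these data known. Named chains were the 7 largest called rises and falls in MEFs against ES cells, 5 in each direction in iPS lines against ES cells, and the 4 largest called differences of each comparison between lines or MEF types, plus Lamb1, Lamc1, Lama5, Itga6 and Itgb1. A chain that enters the counts is not reported here by name. The alternatives were the offset, the scaling, the filter, the block, single arrays left out, and lines as replicates. Sequences came from RefSeq (GRCm38.p6).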

Additional observations from a re-analysis of the deposited data

Results flagged for a closer look

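Some chains moved in opposite directions or to different extents in single lines against their common control, by the test of the difference between the lines. Between OSCE #8 and OSCK the difference was 1.43 for Itga3, -1.54 for Itgae and -1.15 for Itgb7. Between the OSE lines and OSCE #13 it was 1.35 for Itga10, and between OSE #T9 and OSE #T8 it was 1.11 for Itga11. All 5 had the same direction on each of the slides that held both lines.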

How the results depend on the processing

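The 35 named differences kept their direction in all 891 values under alternatives, and 859 kept their call. The 32 that lost it were spread over 13 differences. Of 304 alternative counts of called probes, 290 stayed within 1.5 times. In iPS lines against ES cells (14) the count was 9 without ES replicate 1 and 1 with a mean per line as replicate. OSCE #13 against ES cells (11) gave 6 without OSCE #13 replicate 1. The OSE lines against OSCE #13 (5) gave 9 with a replicate block, with slide as a random block and with slide as a fixed term, which was chosen after seeing the data, 3 without OSCE #13 replicate 1, and 8 without OSE #T8 replicate 1 or OSE #T9 replicate 2. OSE #T9 against OSE #T8 (5) gave 10 with a replicate block or a random slide block, 9 with the fixed slide term, and 3 without replicate 2 of either line. With 1 array left out, counts ran from 23 to 29 for MEFs against ES cells, 30 to 32 for iPS lines against MEFs, 9 to 14 for iPS lines against ES cells, 8 to 11 for OSCK, 9 to 13 for OSCE #8, 6 to 12 for OSCE #13, 10 to 14 for OSE #T8 and 10 to 14 for OSE #T9 against ES cells, 7 to 11 for OSCE #8 against OSCK, 3 to 8 for the OSE lines against OSCE #13, 3 to 6 for OSE #T9 against OSE #T8 and 3 to 4 between the MEF types. The lone array of a group was then taken to vary like the other groups. Median scaling moved the median of all probes in iPS lines against MEFs from 0.02 to -0.09, and it lowered the share of higher calls among all called probes there from 49.0% to 39.1%. That share moved from 50.2% to 38.6% for iPS lines against ES cells, from 50.2% to 35.3% for OSE #T8 and from 52.3% to 33.0% for OSE #T9 against ES cells, and from 50.7% to 34.3% for the OSE lines against OSCE #13. Under it Itgb5 (0.32) and Itga10 (0.27) in iPS lines against ES cells, Lamc1 (0.24) in the OSE lines and Itga3 (0.53) in OSE #T9 were not called. Replicate deviations of different groups correlated at 0.09 to 0.41, over 0.1 in 27 of 28 pairs, and within each set of groups the replicate number is also the slide. With 1 pair under 0.1 the numbers were not used as pairs, and the counts with a block are those given above. The comparison with the authors' normalized table was not run, since its probe names could not be paired. Of 121 called differences with values within slides, 119 kept their direction on every slide, and the exceptions were both of Itga10. Chains near 4.89 to 5.05 are limited by signal over background, and the causes of the changes were not tested.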
